A study of Homo sapiens with 5 samples.

Results

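The genes of the cohesin complex and of its partner CTCF were described by the H3K27ac peaks at their promoters. The 10 genes were RAD21, SMC1A, SMC3, STAG1, STAG2, NIPBL, WAPL, PDS5A, PDS5B and CTCF. A peak belonged to a gene when its centre lay at most 5 kb from a start site of that gene in GENCODE release 44. No measured signal entered this assignment of peaks, while the genes were chosen with earlier results of these data known. Of 20087 peaks in all, 11 met the rule, and each of the 10 genes had at least 1. STAG2 had 2 peaks, called here the main and the downstream peak, and the other 9 genes had 1 each.

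Acetylation of histone H3 at lysine 27 (H3K27ac), found at promoters and enhancers in use, was profiled by ChIP-seq in HCT116 cells, a human colorectal carcinoma line. The derivative used, HCT116 CMV-osTIR1 RAD21-mAC, is 1 engineered line in which RAD21 carries an auxin-inducible degron tag and the plant receptor osTIR1 is driven by the CMV promoter. Both groups carried these changes and both were kept in 0.1% DMSO for 6 h in McCoy's 5A medium, and the labels name no auxin for these libraries. The 2 IFN-β libraries came from cells that next received IFN-β at 1000 unit/ml for 1 h, the 2 control libraries came from cells given nothing more, and 1 input library completed the 5 libraries. The sample titles place the IFN-β libraries at 60 min and the control libraries at 0 min, so that IFN-β and 1 h of further culture cannot be told apart. Each value below is the authors' mean over the libraries of a group, on the scale log2 of normalized reads per peak. Only these group means were used here, so no SD is given, no test between the groups was run, and every difference is a description. Nothing in the sources states that the libraries of a group came from separate cultures.

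Cohesin is a ring-shaped complex of the SMC1A and SMC3 ATPases, closed by RAD21 and joined by either STAG1 or STAG2. NIPBL loads it onto DNA and drives loop extrusion, WAPL releases it, and PDS5A and PDS5B bind the ring and take part in both its release and its protection. CTCF, a zinc finger protein, halts the moving ring at its binding sites, and together they fold chromosomes into loops and domains. H3K27ac at the promoter of one of these genes is a measure of its promoter chromatin, not of the protein.

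Promoter sequences are shown for 3 genes, chosen as the lowest and the highest differences between the groups among genes whose sequence could be shown, SMC3 and NIPBL, and for CTCF. They are from RefSeq (GRCh38.p14, plus strand), run 5′ to 3′ and end before the first annotated exon, and capitals mark motif matches on either strand. The SMC3 stretch, chr10:110567445-110567683, is 239 bases long, lies whole inside the SMC3 peak, has a GC content of 52.7% and holds a GC box (GGGCGG, here as its reverse complement).
SMC3: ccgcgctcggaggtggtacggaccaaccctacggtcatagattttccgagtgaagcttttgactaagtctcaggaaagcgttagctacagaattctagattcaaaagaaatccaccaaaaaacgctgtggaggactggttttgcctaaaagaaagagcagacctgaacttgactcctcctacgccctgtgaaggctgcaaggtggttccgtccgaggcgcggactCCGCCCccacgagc
The NIPBL stretch, chr5:36876701-36876768, is 68 bases long, lies whole inside the NIPBL peak, has a GC content of 64.7% and holds an E2F motif (TTTNNCGC) and an ETS motif (CCGGAAG, as its reverse complement).
NIPBL: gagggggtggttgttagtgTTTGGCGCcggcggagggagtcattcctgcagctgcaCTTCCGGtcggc
The CTCF stretch, chr16:67562310-67562466, is 157 bases long with a GC content of 74.5%, holds a GC box as its reverse complement, and reaches 16 bases into the CTCF peak, so that most of it lies upstream of the peak.
CTCF: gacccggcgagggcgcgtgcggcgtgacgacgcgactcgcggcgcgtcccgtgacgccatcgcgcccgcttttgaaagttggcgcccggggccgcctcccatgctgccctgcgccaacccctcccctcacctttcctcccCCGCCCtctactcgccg
None of the 3 stretches held an ISRE core.

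The second set of sequences is shown because CTCF is itself among these genes: matches to the CTCF core (CC, 3 free bases, AG, 2 free bases, GGC) within 500 bp of a peak's centre. The core was found on either strand in 7 of the 11 peaks, against 29.1% of all 20087 peaks and 35.3% of the 13075 other peaks within 5 kb of a protein-coding start site (other start peaks, below). The matches in 6 of these 7 peaks are printed, with 4 bases on either side and the fixed bases in capitals, and RAD21, the other peak with a match, is named only.
STAG1, chr3:136752407-136752418, minus strand: gcggCCagcAGagGGCggtc
STAG1, chr3:136752349-136752360, minus strand, in an exon: aatgCCaccAGatGGCgggt
SMC3, chr10:110568142-110568153, plus strand: tggcCCcagAGctGGCgggg
CTCF, chr16:67562758-67562769, minus strand: gacaCCtagAGgcGGCccgc
STAG2 main peak, chrX:123960523-123960534, plus strand, in an exon: gtggCCgacAGatGGCgcct
NIPBL, chr5:36876596-36876607, minus strand, in an exon: gcagCCgggAGgcGGCagct
STAG2 downstream peak, chrX:123961932-123961943, plus strand: ttgcCCcgaAGggGGCcctg
The matches in the NIPBL peak and the main STAG2 peak lie upstream of the main start site of the gene. The exon named for them need not be one of that gene. The peaks of PDS5A, WAPL, PDS5B and SMC1A held no match in this window. The core is short and its fixed bases are G and C rich, binding of CTCF was not measured in these libraries, and a match is a description of the letters only.

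All 11 peaks had a lower H3K27ac signal after IFN-β than in the control. Their log2 differences (IFN-β minus control) ran from -1.11 at RAD21 to -0.57 at the STAG2 downstream peak, with a median of -0.87, which is a ratio of 0.547. The signal was lower at most peaks in these libraries: the median log2 difference was -0.69 over all peaks, a ratio of 0.620, and -0.74 over the other start peaks. The cohesin and CTCF peaks lay -0.18 from the first median and -0.13 from the second. A log2 difference of -1 or lower was reached by 3 of the 11 peaks, at RAD21, SMC3 and WAPL, beside 18.1% of all peaks and 19.1% of the other start peaks. A log2 difference above 0 was found for 0 of the 11, beside 5.93% of all peaks and 3.59% of the other start peaks. Against the median of all peaks, 10 of the 11 were lower and the STAG2 downstream peak was higher.

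The ring genes had the highest and the lowest signals per kb of peak. RAD21, whose protein closes the ring and carries the degron tag in this line, had its peak at chr8:116873969-116874969, in intron 1 and centred 307 bp downstream of its MANE Select start site (the reference transcript chosen for the gene). The peak had a log2 signal of 7.57 in the control and 6.46 after IFN-β, or 190.0 and 88.0 normalized reads, a difference of -1.11. This was the lowest difference among the 11 peaks and stood at the 10.7 percentile of all peaks. The control signal of RAD21 stood at the 99.3 percentile, so the peak of the tagged gene was among those with the most normalized reads. The peak spans the start of the gene, and nothing in it tells a tagged from an untagged allele.

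SMC3, 1 of the ATPase subunits, had its peak at chr10:110567368-110568368, in intron 1 with its centre 173 bp downstream of the start site. It had a log2 signal of 7.50 in the control and 6.49 after IFN-β, a difference of -1.01, or 181 and 89.9 normalized reads. Its partner SMC1A had a much weaker peak, at chrX:53421908-53422908, in intron 1 with its centre 246 bp downstream of the start site. The log2 signal of SMC1A was 5.37 in the control and 4.50 after IFN-β, a difference of -0.87. The H3K27ac signal per kb at SMC3 was 4.38 times that at SMC1A in the control and 3.97 times after IFN-β. SMC1A and STAG2 are the 2 genes of the group on the X chromosome. The 362 other start peaks on X had a median control signal of 4.43 on the log2 scale per kb, against 5.33 for autosomal start peaks, so SMC1A at 5.37 lay above the median of its chromosome. The median log2 difference of the other start peaks on X was -0.74. Signals were not corrected here for gene copy number, so levels of different genes are compared as reads only.

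STAG1 and STAG2 are alternative subunits, and only 1 of them is present in a given ring. The STAG1 peak, chr3:136751460-136753402, was 1942 bp wide and centred 53 bp upstream of the start site. Its log2 signal was 7.63 in the control and 6.79 after IFN-β, a difference of -0.84, or 198 and 111 normalized reads. This was the highest signal of the 11 per peak, and 6.67 and 5.83 on the log2 scale per kb. The main STAG2 peak, chrX:123959606-123961576, was 1970 bp wide and centred 1115 bp upstream of the MANE Select start site, close to another annotated start of the gene. For this peak the log2 signal was 6.61 in the control and 5.78 after IFN-β, a difference of -0.83, and per kb its log2 signal was 5.63 and 4.80. Per kb, the signal at STAG1 was 2.06 times that of the main STAG2 peak in the control and 2.04 times after IFN-β. This ratio, which leaves out the downstream STAG2 peak, was thus nearly the same in both groups. STAG2 is on X, where the other start peaks had a median control log2 signal per kb of 4.43, against 5.33 on autosomes. The part of this gap in the ratio was not tested.

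The downstream STAG2 peak, chrX:123961818-123962818, followed the main peak after a gap of 242 bp and lay in intron 1, centred 612 bp downstream of the start site. Its log2 signal was 5.20 in the control and 4.63 after IFN-β, a difference of -0.57. These were the lowest control value and, after SMC1A, the second lowest IFN-β value of the 11, and the difference was the nearest to 0 among the 11 peaks. Its GC content of 48.2% was also the lowest of the 11, against 61.3% in the main peak.

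Of the genes that load, release or hold the ring, the loader NIPBL had the smallest difference and the release factor WAPL the largest. The NIPBL peak, chr5:36875859-36876859, was centred 410 bp upstream of the start site, with 909 bp of it upstream. Its log2 signal was 6.12 in the control and 5.42 after IFN-β, a difference of -0.70, within 0.01 of the median of all peaks. The WAPL peak, chr10:86520951-86521951, was centred in exon 1, 341 bp downstream of the start site. The log2 signal of WAPL was 6.51 in the control and 5.51 after IFN-β, a difference of -1.0, or 91.1 and 45.6 normalized reads. NIPBL and WAPL act in opposite directions on cohesin, and the ratio of IFN-β to control signal was 0.5 for WAPL.

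PDS5A and PDS5B are related proteins with overlapping roles. The PDS5A peak, chr4:39976911-39977911, had a log2 signal of 6.87 in the control and 5.92 after IFN-β, a difference of -0.95. The PDS5B peak, chr13:32586431-32587431, had a log2 signal of 6.01 in the control and 5.14 after IFN-β, a difference of -0.87. Both were centred in intron 1, 500 bp and 479 bp downstream of the start sites. The signal per kb at PDS5A was 1.82 times that at PDS5B in the control and 1.72 times after IFN-β. CTCF, which marks where loops end, had its peak at chr16:67562450-67563450, in intron 1 and centred 424 bp downstream of the start site. Its log2 signal was 7.30 in the control and 6.38 after IFN-β, a difference of -0.92, or 158 and 83.3 normalized reads. With 76.4% its peak had the highest GC content of the 11.

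**Figure D1:**
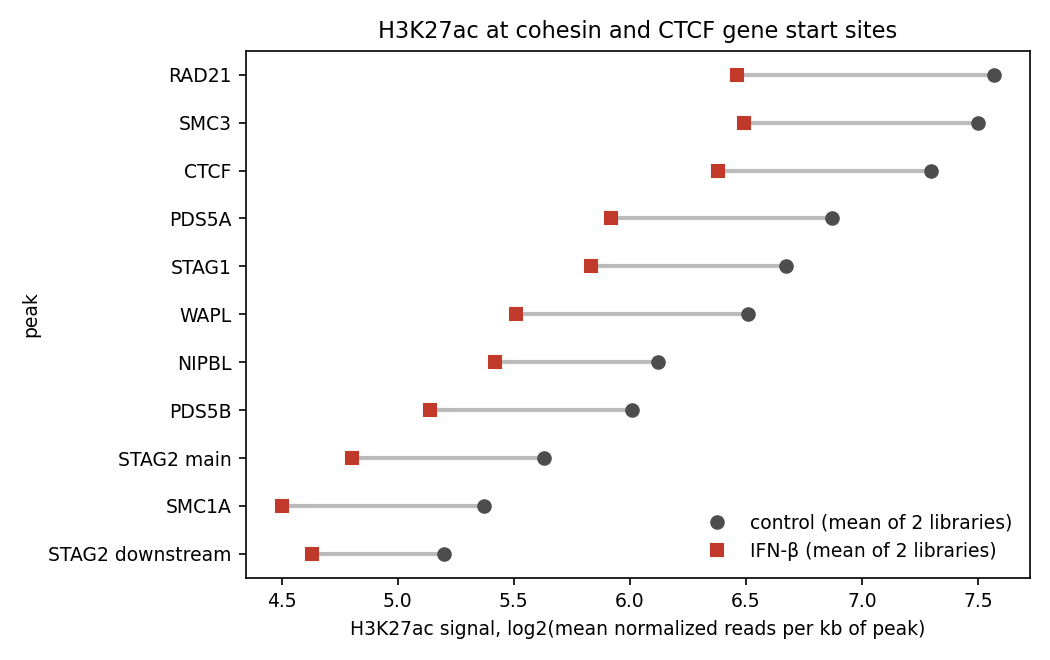
H3K27ac signal of the 11 peaks as log2 of the authors' mean normalized reads per kb of peak (x axis), with a grey circle for the mean of the 2 control libraries and a red square for the mean of the 2 IFN-β libraries. In each of the 11 peaks the IFN-β value lies below the control value, and no error bar can be drawn from group means.

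Per kb of peak, the control log2 signal of each gene's main peak ordered them as RAD21 (7.57), SMC3 (7.50), CTCF (7.30), PDS5A (6.87), STAG1 (6.67), WAPL (6.51), NIPBL (6.12), PDS5B (6.01), STAG2 (5.63) and SMC1A (5.37). After IFN-β, SMC3 at 6.49 and RAD21 at 6.46 exchanged places, and the other 8 genes kept their order. With no spread between libraries, it is not known which neighbours in this order differ. The highest value was 4.59 times the lowest in the control and 3.97 times after IFN-β. The ring genes and the other genes had similar differences: the median over the 6 peaks of the ring was -0.86 and that over the 4 peaks of NIPBL, WAPL, PDS5A and PDS5B was -0.91.

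In the control, 6 of the 11 peaks (RAD21, SMC3, STAG1, CTCF, PDS5A and the main STAG2 peak) were in the top decile of signal over all peaks, which held 12.5% of the other start peaks. None of the 11 was in the lower 5 deciles. Stronger peaks had lower differences in these libraries: the median of the other start peaks was -0.71 in the decile of control signal from 5.04 to 5.40 and -0.84 in the top decile. The control signal is also subtracted in the difference, so these measures are not independent. Set against the other start peaks of the same decile, 7 of the 11 peaks lay below the median, from -0.27 for RAD21 to 0.14 for the STAG2 downstream peak, with a median of -0.10. STAG1 stood at that median, the main STAG2 peak at 0.01 and NIPBL at 0.09. Among the 1631 other start peaks of the top decile, log2 differences ran from -1.14 at the 5th percentile to -0.53 at the 95th, and RAD21 at -1.11 stood at the 6.50 percentile. GC content moved with the difference as well: set against start peaks of the same decile of GC content, 9 of the 11 lay below the median and the median was -0.10. What signal strength and GC content contribute to the values of the 11 peaks was not tested.

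**Figure D2:**
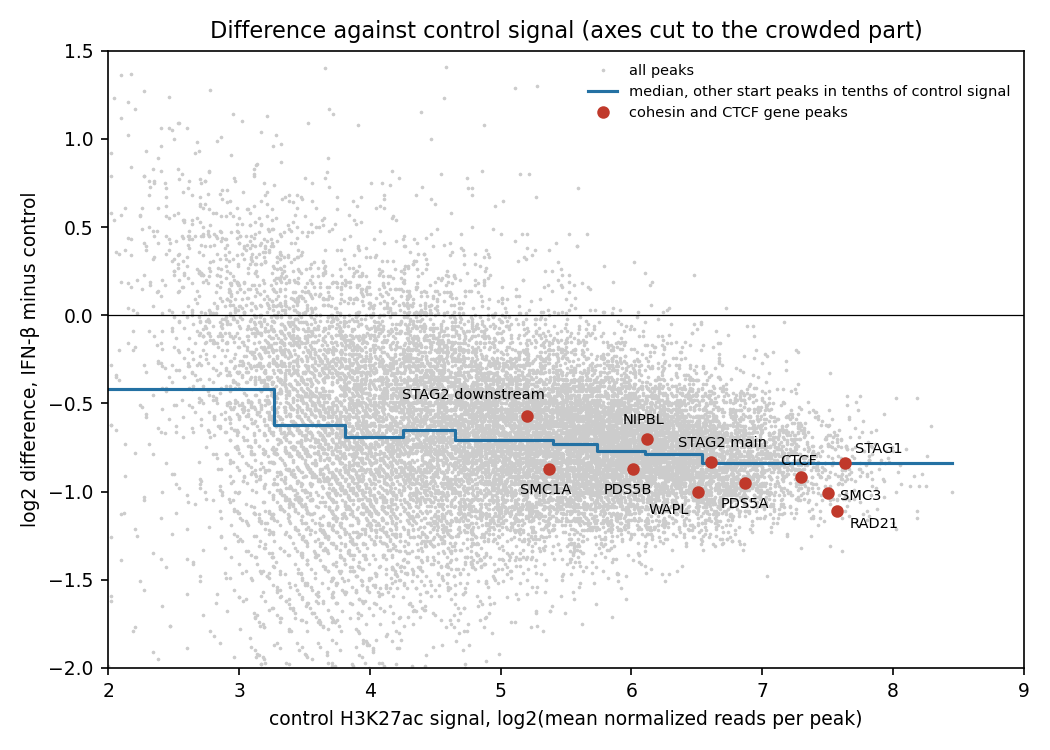
Log2 difference (IFN-β minus control, y axis) against the control log2 signal per peak (x axis) for all peaks in grey, the 11 cohesin and CTCF gene peaks in red, and the median of the other start peaks in each decile of control signal as a blue step line; 754 peaks lie outside the axes. The 11 peaks lie within the cloud of all peaks, with RAD21 at -1.11 and the STAG2 downstream peak at -0.57 as their lowest and highest.

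To remove the shift shared by all peaks, their median of -0.69 was subtracted from each difference. The centred differences of the main peaks ran from -0.42 at RAD21 to -0.01 at NIPBL, with SMC3 at -0.32, WAPL at -0.31, PDS5A at -0.26 and CTCF at -0.23 between them. SMC1A and PDS5B were both at -0.18, STAG1 at -0.15 and STAG2 at -0.14, and the downstream STAG2 peak was at 0.12. A centred difference of -0.5 or lower was reached by 0 of the 11, beside 7.88% of all peaks, and 0.5 or higher by 0 of the 11, beside 11.1% of all peaks. The range over the 11 peaks was 0.54 on the log2 scale. Fewer cells with the mark and less of the mark per cell cannot be told apart in such bulk samples. Neither can be told from a level set by the authors' normalization, and this was not tested.

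The peaks sat tightly at the start sites, with centres between 28 and 410 bp from the nearest annotated start of the gene. Of the 11, 9 had the standard width of 1000 bp and 2, those of STAG1 and the main STAG2 peak, were wider, as were 8.58% of all peaks. Of the 11 centres, 8 lay downstream of the MANE Select start site. Their differences had a median of -0.94 and ran from -1.11 to -0.57. The other 3 lay upstream (STAG1, the main STAG2 peak and NIPBL), with differences from -0.84 to -0.70, so the ranges overlap. Each peak centred downstream had a lower difference than each peak centred upstream, except the STAG2 downstream peak, the highest of the 11. For the other protein-coding genes, the medians of the nearest peak were -0.77 over 6823 centred downstream and -0.74 over 4428 centred upstream. This split was looked at after the values had been seen.

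**Figure D3:**
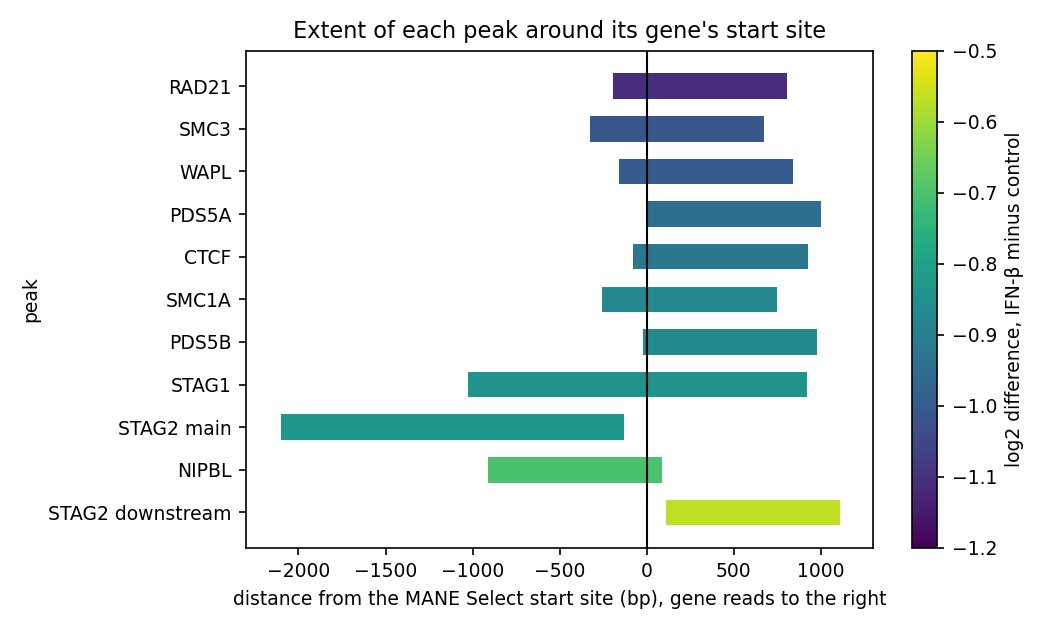
Extent of each of the 11 peaks in bp around the MANE Select start site of its gene (x axis, the gene reads to the right of 0), ordered from the lowest to the highest difference, with the log2 difference (IFN-β minus control) as colour. The main STAG2 peak lies wholly upstream of the start, the downstream STAG2 peak wholly downstream, and the NIPBL peak reaches mostly upstream.

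A start site on the other strand lay within 1 kb of the MANE Select start for 7 of the 10 genes, against 39.3% of the 11882 protein-coding genes with such a start and a peak. For 6 of them the partner was a long non-coding RNA, against 17.8%. STAG1-DT, NIPBL-DT, WAPL-DT, CTCF-DT and STAG2-AS1 ran away from their genes from starts 252, 69, 153, 217 and 365 bp off, and RAD21-AS1 began 352 bp inside RAD21. The partner of SMC1A was RIBC1, a protein-coding gene that began 36 bp off and ran the other way. PDS5A, PDS5B and SMC3 had no such partner. A peak near 2 starts cannot be assigned to either alone, so the signal given for these 7 genes may belong in part to the partner. Not every such peak covers both starts. The CTCF peak begins between the CTCF-DT start and the CTCF start, and the main STAG2 peak ends before the MANE Select start.

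Peaks were also counted in the gene bodies. The 10 genes span 28843 to 462453 bp, and of 6519 protein-coding genes in that range with a peak at the start, 21.4% also had a peak in the gene body beyond 5 kb of any of their starts. Among the 10 this was so for 1, a share not told apart from that background, namely STAG1, with a peak at chr3:136624483-136625483, 20510 bp from the nearest start. There the log2 signal was 3.27 in the control and 3.23 after IFN-β, a difference of -0.04, and its GC content was 33.3%. This weak peak, unlike the peak at the STAG1 start, had almost the same value in both groups. Over all peaks, the median difference was -0.42 in the lowest decile of control signal, which ends at 3.27. It was -0.48 in the lowest decile of GC content.

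All 11 peaks held a GC box, as did 67.3% of all peaks and 84.7% of the other start peaks. Their median GC content was 66.7%, against 58.1% over all peaks and 63.0% over the other start peaks. Their median CpG ratio (observed over expected from base content) was 0.902, with a range from 0.681 to 0.996, against 0.656 over all peaks and 0.760 over the other start peaks. The peaks were thus those of CpG-rich promoters.

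The ISRE core (GAAA, 2 free bases, GAAA) is the element bound by the interferon-activated factor ISGF3. It was found in 1 of the 11 peaks, that of RAD21, against 11.6% of all peaks and 9.28% of the other start peaks. RAD21 was also the gene with the lowest difference, so the letters of the core did not go with a higher signal there. The CCAAT box (CCAAT) was in 8 of the 11, against 61.8% of all peaks and 58.8% of the other start peaks. The YY1 motif (AAGATGG) was in 3, against 16.4% of either. The E2F motif was in 5 of the 11 (STAG1, SMC3, NIPBL, SMC1A and the STAG2 downstream peak), against 18.2% of all peaks and 22.9% of the other start peaks. The ETS motif was in 4 (WAPL, NIPBL, PDS5B and SMC1A), against 20.9% and 27.2%. The E-box (CACGTG), the CRE (TGACGTCA) and the NRF1 motif (CGCATGCG) were in none of the 11, against 17.9%, 2.79% and 3.38% of all peaks. Over the other start peaks these shares were 20.4%, 3.64% and 4.57%. Each motif was sought on both strands within 500 bp of the centre, and overlapping matches of different motifs each counted.

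Other genes of the same machinery and of the interferon response were read at the peak nearest to a start site, 1 peak per gene. By this reading the 10 cohesin and CTCF genes had a median log2 difference of -0.90, against -0.76 over the 12401 of 20007 protein-coding genes with such a peak. The share at -1 or lower was 19.2% over these genes, and the share above 0 was 2.37%. All counts below are descriptions beside these shares. Neighbouring starts are not given for the listed genes, and a peak may belong in part to a neighbour.

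Of 17 genes that act on cohesin through the cell cycle, all 17 had a peak, with a median log2 difference of -0.93, and 5 were at -1 or lower and 2 above 0. The lowest was CHTF18, a subunit of the clamp loader that supports cohesion, with a difference of -1.19 (5.97 in the control and 4.78 after IFN-β). The highest was HDAC8, the deacetylase that recycles SMC3, with a difference of 0.32 (3.31 and 3.63), a much weaker peak than any at the 10 genes. Of the 5 germline paralogs, STAG3, REC8 and CTCFL had no peak. RAD21L1 and SMC1B, which replace RAD21 and SMC1A in meiosis, had differences of -1.03 (4.11 and 3.08) and -1.0 (4.55 and 3.55). Of 17 genes of condensin and the SMC5/6 complex, the other SMC machines, 16 had a peak, with a median of -0.86, 4 at -1 or lower and 0 above 0. They ran from SMC4, the condensin ATPase, at -1.11 (7.36 and 6.25) to NCAPD3, a condensin II subunit, at -0.53 (5.23 and 4.70).

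The 8 proteins that share sites or contacts with CTCF had a median of -0.89, with 3 at -1 or lower and 0 above 0. PATZ1, a zinc finger factor, had the lowest difference, -1.53, with log2 signals of 4.04 and 2.51, followed by ADNP at -1.15 and MAZ at -1.12. ZNF143, a promoter-binding factor, was at -0.97 with log2 signals of 7.84 and 6.87, YY1 at -0.81, the remodeller CHD8 and the looping cofactor LDB1 both at -0.68, and topoisomerase TOP2B at -0.43.

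Genes of the interferon pathway were read in the same libraries. Their lists were chosen with earlier results of these data known, so they are no independent contrast. The 7 genes from receptor to ISGF3, the transcription factor complex that answers IFN-β, had a median log2 difference of -0.41. They ran from IFNAR2, a receptor subunit, at -0.67 (4.79 in the control and 4.12 after IFN-β) to IRF9, a subunit of ISGF3, at 1.29 (5.11 and 6.40). Of 11 listed interferon-stimulated genes, 10 had a peak and OAS1 had none. The median over these 10 was 0.39, and 9 were above 0. They ran from ISG15 at -0.53, at its nearest peak, to IFI6 at 1.94 (3.36 and 5.30). Of the 10 cohesin and CTCF genes, 0 were above 0, beside 2.37% of all protein-coding genes with such a peak.

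**Figure D4:**
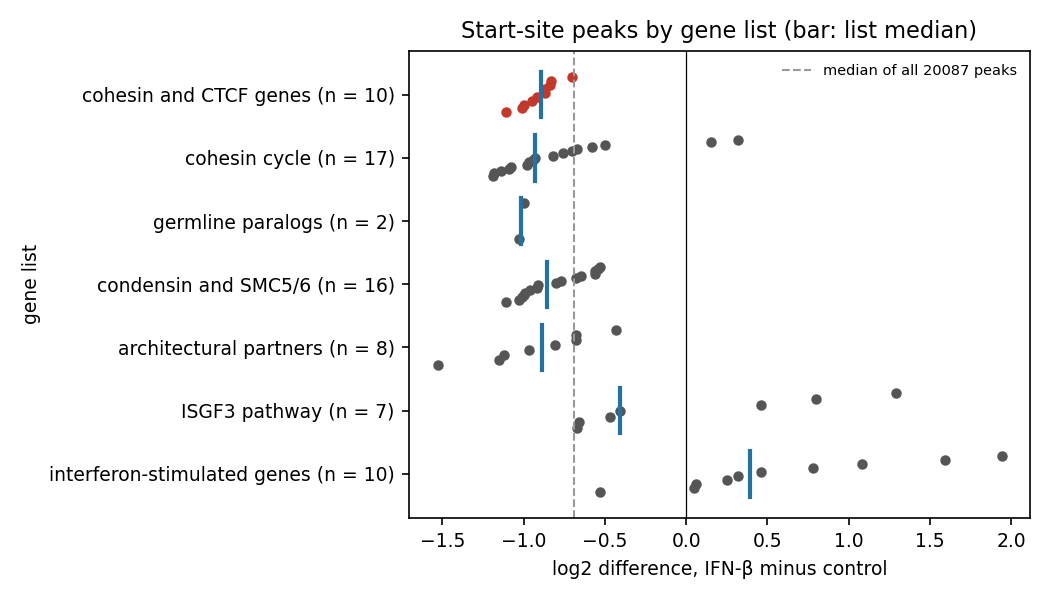
Log2 difference (IFN-β minus control, x axis) at the peak nearest to a start site for each gene of 7 lists (y axis), with 1 point per gene, the blue bar at the list median, the dashed line at the median of all peaks and n the genes with a peak. The 10 cohesin and CTCF genes lie between -1.11 and -0.70, while 9 of the 10 interferon-stimulated genes lie above 0. All lists were chosen with earlier results of these data known.

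Markers of cell types were read in the same way. Of 8 epithelial markers, 6 had a peak at the start site, with control log2 signals from 4.48 at CDH1 to 7.10 at EPCAM, and VIL1 and CDH17 had none. Of 7 markers of other cell types, 1 (COL1A1, 5.24 in the control) had a peak. Over all protein-coding genes, 62.0% had a peak at the start site, so these counts are a description and no check of the label. Summed over all peaks, the mean normalized reads were 876825 in the control and 540427 after IFN-β, a log2 ratio of control over IFN-β of 0.70, and the part of this gap in the differences of the 11 peaks was not tested. The lowest log2 values in the table were -0.17 in the control and -0.59 after IFN-β, and each of the 11 peaks lay far above them.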

How the data were processed

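The authors profiled H3K27ac by ChIP-seq in 2 IFN-β and 2 control libraries with 1 input. Per the labels and methods, reads were demultiplexed with bcl2fastq 2.17, trimmed with fastp 0.19.3, aligned to GRCh38 with Bowtie2 and handled with SAMtools, and peaks were called per library with MACS2 against the input. DiffBind then merged the peaks over libraries and normalized the counts for library size. The values used are, as deposited, the log2 of the authors' mean normalized reads per peak in each group. The deposited fold change, p-value and FDR columns hold the authors' own DESeq2 comparison and were not used. With no value per library, depth per library could not be weighed, and no test was run.

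Differences, medians, deciles and shares were computed in Python 3.11.15 with pandas 2.3.3 and numpy 2.4.6. All 39 sequence names matched the GRCh38 reference, pysam 0.24.0 read the sequence 500 bp to either side of each peak's centre (1 window was shortened by a contig end), and figures were drawn with matplotlib 3.10.9. Steps were tested on simulated data. Signal per kb divides reads by peak width. Genes named are the 10 members, the lowest and highest gene of each other list, lists of up to 8 genes in part or whole, and neighbours at a member's start. The members and lists were chosen with earlier results of these data known. DDX58, an older name of RIGI, also stood in the list, and this gene was counted once. Alternatives changed the distance to a start, the start sites used, a minimum signal, a pseudocount of 1 read, the peak taken per gene, the centring and the limits. The value of 1 listed gene is not reported here.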

Additional observations from a re-analysis of the deposited data

How the results depend on the processing

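All 10 genes had a peak within 1 kb and within 20 kb of a start site. The median log2 difference of the peaks (-0.87) moved with the reference level: it was -0.18 after centring on all peaks, -0.17 after scaling to equal total signal and -0.10 after centring on the same decile of GC content. Under these 3 settings 0 peaks were at -1 or lower in place of 3, and with a limit of -0.5 the count was 11. The median of all peaks was -0.69, so most peaks pass that limit too. A limit of 0.25 for centred differences was passed by 4 peaks in place of 0, those of RAD21, SMC3, WAPL and PDS5A, all on the low side. The shares of all peaks past the limits of -0.5 and 0.25 were not computed, so neither count can be set against a background. The other settings gave medians from -0.90 to -0.85 and counts of 2 to 4, and the gap to the other start peaks (-0.13) stayed between -0.16 and -0.09. Per gene, the GC setting put 1 gene above 0, NIPBL at 0.06. No paired analysis was possible because the values used are group means, and for the same reason no library could be left out. The direction below 0 in the report is thus relative to the authors' normalization.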
